A study of Mus musculus with 18 samples.

Results

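Paneth cells were compared between old and young mice in 4 libraries: old fasted and old refed against young fasted and young refed, with diet as a term, out of 18 libraries in the series. They were chosen by label, as cells sorted from small-intestinal crypts as positive for CD24 and c-Kit. An old ad libitum fed library of the same gate was used only to see where it falls, since the sole library with a source field of young fed Paneth is a young fasted progenitor by its other labels. The mice were C57BL/6, the fast lasted 24 h, and the series also sorted stem cells and progenitors by a GFP reporter of Lgr5, while the alleles of the mice behind the Paneth libraries are not given. Each combination of age, diet and gate is 1 library of polyadenylated RNA. The labels say only "young" and "old", give no length of refeeding, and do not say whether libraries come from separate or pooled animals. With no replicate of any combination, p-values rest on how far libraries of all 3 gates depart from added age and diet terms. That is not a spread between replicate Paneth libraries, and it may be technical.

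Paneth cells sit at the base of the crypt between the stem cells, store lysozyme and defensins in granules and release them into the lumen. They also feed the stem cells with ligands, among them Wnt3, Egf and the Notch ligands Dll1 and Dll4. CD24 is carried by other secretory cells of the crypt as well, such as tuft cells, which sense the contents of the lumen, and enteroendocrine cells, which release hormones. In bulk RNA, fewer cells of a type and less RNA per cell cannot be told apart, which holds for each cell type named here.

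The 5 libraries hold 10631071 (old fasted) to 15654490 (young refed) counts. Levels are CPM, counts scaled to library size, after a TMM correction for library composition, unless said to be unscaled. Products of the labelled cell type were abundant: 28 antimicrobial genes took 36.3% and 37.7% of all counts in the young fasted and young refed library and 36.5%, 42.1% and 37.6% in old fasted, old refed and old fed. Most defining leukocyte markers were scarce. Unscaled Cd3d, Cpa3 and Ms4a2 were at 0 in all 5, Cd3e was at most 0.142 CPM, Adgre1 at most 0.284 and Jchain at most 0.564. Others were present: Csf1r was at 1.6 to 2.79 CPM, Cd247 at 3.34 to 7.73 and Ptprc at 1.95 to 37.7. The summed level of 19 myeloid genes was 76.4 and 90.1 unscaled CPM in young fasted and young refed, 93.2 and 113.8 in old fasted and old refed (ratios of 1.22 and 1.26) and 112.7 in old fed, and 5 of the 19 were at 0 in all 5 libraries. The myeloid list holds Lyz2, which is also on the antimicrobial list, so its sum is not of leukocyte genes alone. The T and NK sum moved the other way (ratios of 0.528 and 0.507), with Ptprc as its largest part in young fasted. The part of these in the results was not tested. RNA of both sexes was present in unequal shares: Y-linked Ddx3y was at 28.7 and 13.1 CPM in young fasted and young refed, 37.2 and 36.3 in old fasted and old refed and 24.7 in old fed, and Xist was highest in young refed at 960.1 CPM, against 626.2 to 709.9 in the others. That imbalance was largest for young refed and also ran with age. Ddx3y was higher in old cells by 0.37 log2 units in the fasted and 1.46 in the refed pair. Of 5 sex-linked genes 4 were higher in old cells in both pairs, against 4649 of 15386 genes, and 1 was lower in both. The part of this imbalance in the results was not tested. By the numbers in their titles, young refed belongs to the same unbroken run as all old libraries, and young fasted to an earlier run.

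Most genes called for age were lower in old cells, and how many were called depended on the fit. Of 15386 genes tested with edgeR's quasi-likelihood test and Benjamini-Hochberg adjustment, 53 (0.344%) passed an adjusted p of 0.05, the meaning of "called" here. Only 6 (0.039%) were higher and 47 (0.305%) were lower in old Paneth cells, while the median log2 difference of all genes was 0.01. The called differences ran from 0.48 to 6.65 log2 units in size, with a median of -1.05 for the lower and 0.96 for the higher genes. All 53 had the same sign in the fasted pair and in the refed pair. The old fed library, which the contrast did not use, was below both young libraries for 36 of the 47 lower genes, against 36.6% of all genes with a negative difference. It was above both young libraries for 5 of the 6 higher genes, against 42.3% of all genes with a positive difference. The number called fell without any 1 of the 4 libraries. Leaving out 1 library of a pair leaves the other to its diet term, so only the other pair enters the contrast. The 4 fits are therefore 2 comparisons, each of 1 old and 1 young library, and not 4 separate checks. The Notum difference, as an example, was 1.27 without either fasted library and 2.02 without either refed one. Of 39 called genes named here, 3 remained called without young fasted or old fasted and 4 without young refed or old refed. Gm9765 and 1810030J14Rik remained in each of these 4 fits, Mep1a remained without a fasted library, and Rps4y2 and Me1 remained without a refed library. All other named calls were lost in each of the 4 fits (edgeR adjusted p up to 0.578), without a change of sign. On other fits the 1810030J14Rik call was lost: with the 5 Paneth libraries alone (log2 -4.21, adjusted p = 0.242), with the 4 matched ones alone (adjusted p = 0.254) and with no diet term (adjusted p = 0.064). Rps4y2 was not tested in the fits of Paneth libraries alone. DESeq2 called 125 genes, 49 of them among the 53. edgeR called 373 on the 5 Paneth libraries alone and 356 on the 4 matched ones (51 of the 53 in each), and 313 with no expression filter (52 of the 53), in each case with more lower than higher.

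**Figure D1:**
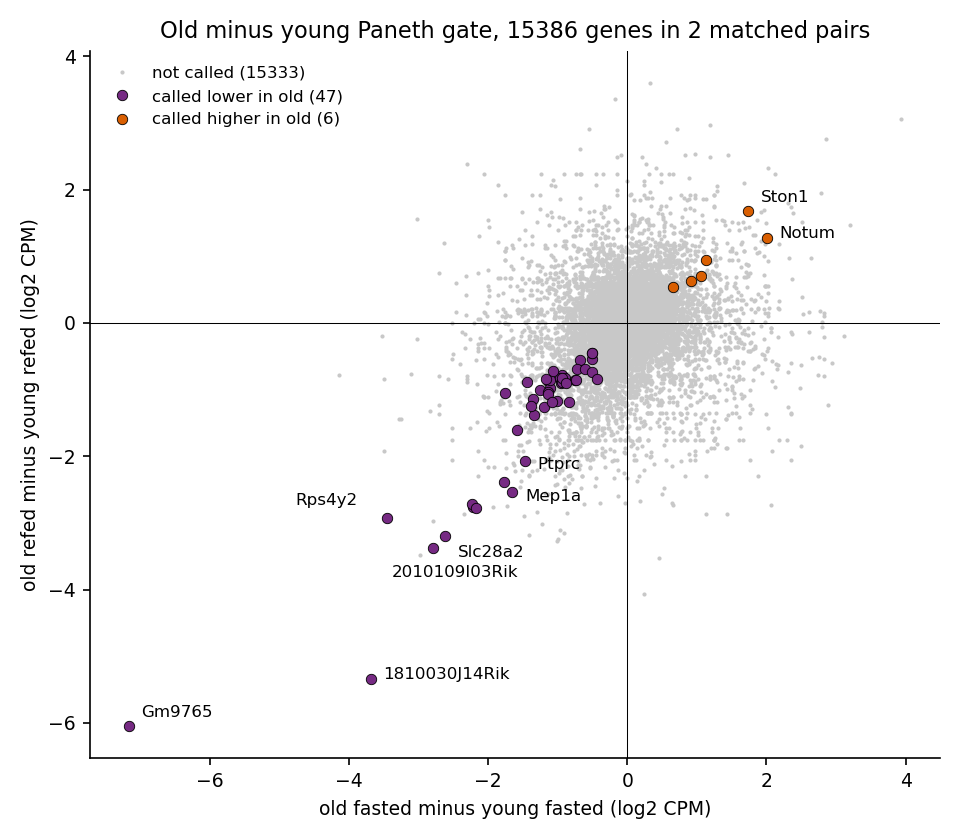
Difference between old and young Paneth cells in log2 CPM for each of 15386 genes, fasted pair on the horizontal and refed pair on the vertical axis. The 47 genes called lower (purple) all lie below 0 in both pairs and the 6 called higher (orange) above 0 in both.

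Tuft cell genes were the group with the most calls. All 17 tested genes of an 18-gene tuft list were below 0 in both pairs, against 29.4% of all genes, and 5 were called lower, among them Avil, Trpm5, Sh2d6 and Alox5. The median of the list was -1.01 against 0.01 for all genes; it was -1.05 in the fasted and -0.85 in the refed pair. Each of the 17 had an unadjusted p under 0.05 and a lower level in old cells, which 6.66% of all genes had. For 0 of the 17 did both old libraries lie below both young ones (13.4% of all genes), so in these 4 libraries the lower level shows within a diet and not across diets. Old fed lay below both young ones for all 17, against 28.3% of all genes. Age and diet cannot be told apart for that library. Adjusted p of the other 12 ran from 0.0584 to 0.423. DESeq2 called 6 members lower, and edgeR 11 on the 5 Paneth libraries alone, 12 on the 4 matched ones and 11 with no expression filter.

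Avil (ENSMUSG00000025432, chromosome 10, 127000065 to 127020994, GRCm38), an actin-binding protein of the tuft cell's apical bundle, was at 258.5 CPM in young fasted and 117.4 in old fasted cells. After refeeding it was at 94.4 in young and 51.8 in old cells. Old fed cells were at 50.6. The ages overlapped across diets, since old fasted lay above young refed, and the difference shows within each diet: -1.01 log2 (SE 0.14, adjusted p = 0.013).

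Trpm5 (ENSMUSG00000009246, chromosome 7, 143071529 to 143094642), the cation channel through which tuft cells depolarise on a taste stimulus, fell from 356.1 to 162.1 CPM in the fasted and from 124.6 to 61.0 in the refed pair, with old fed at 74.2 (log2 -1.09, SE 0.16, adjusted p = 0.0242). The 5-lipoxygenase Alox5, which starts leukotriene synthesis, fell from 108.5 to 39.8 and from 33.7 to 18.2 CPM (log2 -1.19, SE 0.18, adjusted p = 0.0212). In both genes the lower library of each pair was the old one. Sh2d6, an SH2-domain protein, was at 234.6 and 87.6 CPM in young fasted and refed and at 120.2 and 49.1 in old cells (log2 -0.90, SE 0.14, adjusted p = 0.0212). Of the genes that define the lineage, the doublecortin-like kinase Dclk1 was at 347.2 and 142.4 CPM in young and 173.8 and 85.4 in old cells (log2 -0.87, adjusted p = 0.136). The lineage factor Pou2f3 was at 37.8 and 19.8 CPM in young and 21.8 and 12.1 in old cells (log2 -0.76, adjusted p = 0.159). Neither passed the test.

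**Figure D2:**
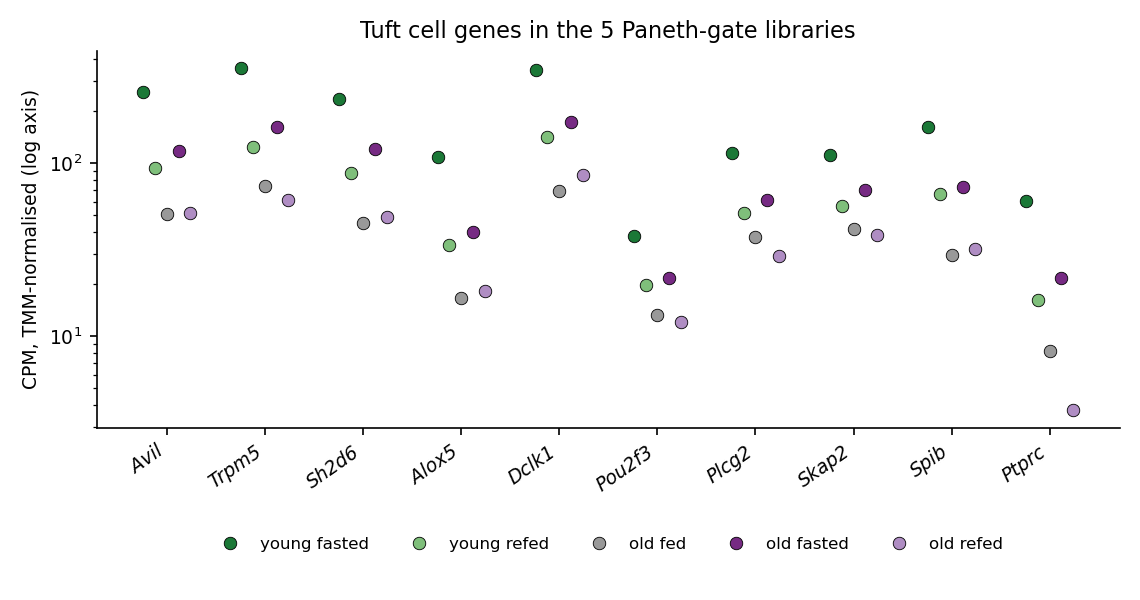
Level of 10 genes of tuft cells or of both tuft and immune cells, in CPM on a log axis, with 1 point for each of the 5 Paneth-gate libraries. Within each diet the old point (purple) lies below the young point (green), and fasted lies above refed at both ages.

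Genes outside the list followed the same order of libraries. Plcg2, the phospholipase of the same sensing cascade, was at 114.5 and 51.6 CPM in young fasted and refed and 61.4 and 28.9 in old cells (log2 -0.87, SE 0.11, adjusted p = 0.00672). Spib, an Ets-family transcription factor, went from 161.8 to 73.3 and from 66.6 to 31.9 CPM (log2 -1.11, adjusted p = 0.0264). The kinase Matk went from 134.9 to 52.8 and from 37.4 to 16.9 CPM (log2 -1.26, adjusted p = 0.0069), and the tetraspanin Tspan6 from 81.8 to 32.3 and from 26.1 to 9.96 CPM (log2 -1.36, adjusted p = 0.0048). Ptprc encodes CD45, the phosphatase of leukocytes that some tuft cells also make. It was at 60.1 and 16.1 CPM in young fasted and refed, 21.7 and 3.72 in old fasted and refed and 8.23 in old fed cells (log2 -1.73, SE 0.27, adjusted p = 0.0253). Of 24 T and NK cell genes only 5 had enough reads for a test, Ptprc was the only one called, and 3 were at 0 in all 5 libraries.

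Summed over 18 genes, the tuft list took 1475 unscaled CPM in young fasted and 721 in old fasted cells, a ratio of 0.489, and 486.6 and 251.1 in the refed pair, a ratio of 0.516. Old fed cells were at 268.6. The levels also moved with diet: 17 of 17 tested members were called higher in fasted than in refed Paneth cells, against 9.18% of all genes, with a median of 1.36. Without the diet term, 0 of the 4 named tuft calls remained by edgeR (adjusted p = 0.597 to 0.686). Leaving out young fasted, young refed, old fasted or old refed left 0 of the 4 each time (adjusted p = 0.127 to 0.505), with log2 differences of -1.45 to -0.83.

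In progenitors the tuft median was -1.12 and 4 members were called lower (0.162% of all genes), but these rested on the young fasted progenitor library, whose source field reads young fed Paneth against its title, treatment and cell subtype. Its antimicrobial genes summed to 42530 unscaled CPM, above the 15250 or less of the other 5 progenitor libraries and below the 362800 or more of the 5 Paneth libraries. Without it the progenitor median was -0.78 over 15 tested members and 0 were called. In stem cells the median was 0.10 and 0 were called (0.195% of all genes, in either direction). For Plcg2 the age difference in the Paneth gate was itself larger than in the other gates (log2 difference of the differences -0.99, adjusted p = 0.0173), as it was for Skap2, an adaptor of Src kinases (-0.92, adjusted p = 0.0173). For Avil and Trpm5 that test gave adjusted p = 0.204 and 0.485.

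Enterocyte genes lay below 0 in old against young cells, and whether any passed the test depended on the fit. All 22 genes of the list were below 0 in both pairs, 0 were called, and the median was -0.99 (fasted pair -0.68, refed pair -1.32). Both old libraries lay below both young ones for 20 of the 22, against 13.4% of all genes, and 7 had an unadjusted p under 0.05. Other fits called members lower: 4 by DESeq2, 7 by edgeR on the 5 Paneth libraries alone or on the 4 matched ones, 3 with no expression filter and 1 each with DESeq2 size factors, without young fasted and without old fasted. The list took 5719 and 5219 unscaled CPM in young fasted and young refed cells, 3602 and 2011 in old fasted and old refed, and 3211 in old fed, so the young libraries were the highest. Mgam, the brush-border maltase-glucoamylase, came nearest to the threshold at 597.3 and 549.6 CPM in young and 412.4 and 254.1 in old cells (log2 -0.82, adjusted p = 0.0536). Slc5a1, the sodium-glucose transporter, was at 317.9 and 290.5 CPM in young and 155.5 and 112.8 in old cells (log2 -1.20, adjusted p = 0.0874). In progenitors the median of the list was 0.63, and in stem cells -0.18; no member passed the test of Paneth against the other gates.

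**Figure D3:**
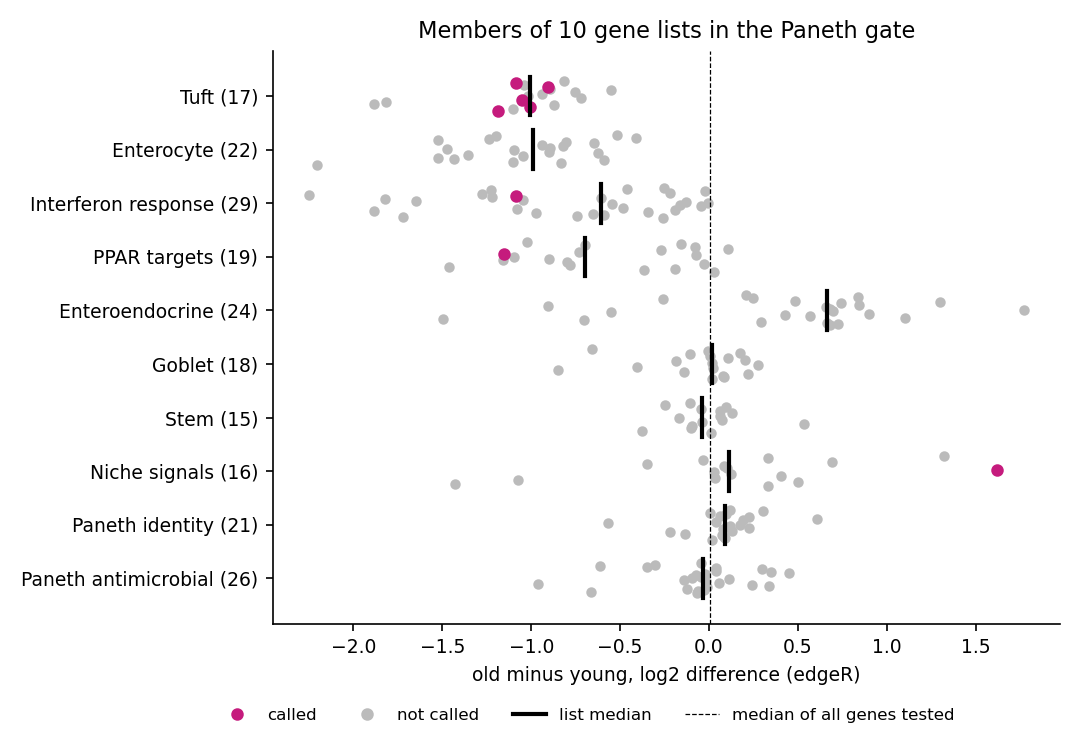
Log2 difference between old and young Paneth cells for each tested member of 10 gene lists (number tested in brackets), with called members in pink, list medians as black bars and the median of all genes as a dashed line. Tuft, enterocyte and interferon members lie below 0, while Paneth, stem and goblet lists are centred near it.

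Single genes of absorptive cells did pass. Mep1a (ENSMUSG00000023914, chromosome 17, 43474324 to 43504143), the alpha subunit of the brush-border protease meprin, was at 48.9 and 62.5 CPM in young fasted and refed cells. In old fasted and refed cells it was at 15.5 and 10.62, and in old fed at 28.9, so all 3 old libraries lay below both young ones (log2 -2.10, SE 0.23, adjusted p = 0.00678). Its age difference was larger than in the stem and progenitor gates (-1.98, adjusted p = 0.0381). Slc10a2, the ileal bile acid transporter, was at 5.76 and 33.2 CPM in young and 2.78 and 3.32 in old cells (log2 -2.36, adjusted p = 0.105). Muc3, a membrane mucin, was at 110.7 and 138.0 CPM in young and 38.3 and 26.4 in old cells (log2 -1.95, adjusted p = 0.0857). Neither of the 2 passed. They stand with Mep1a on a list of 12 tested genes of the distal intestine, of which 10 were below 0 and Mep1a alone was called (median -1.37). The summed distal list rose from 523.4 to 810 unscaled CPM in the fasted pair and fell from 594.7 to 394.7 in the refed pair. It holds Gip, a hormone gene also on the enteroendocrine list, at 105.0 CPM in young fasted and 705.4 in old fasted cells (2.75 in the fasted pair). The list and its sum are therefore not of distal genes alone. Of 14 tested genes of the proximal intestine 13 were below 0 and 0 were called (median -0.47), with sums at ratios of 0.608 and 0.354.

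A second set of called genes was low in the 2 old libraries of the comparison and not in old fed cells. Slc28a2 (ENSMUSG00000027219, chromosome 2, 122426357 to 122461152), a concentrative nucleoside transporter, was at 51.6 and 61.1 CPM in young fasted and refed and 8.34 and 6.51 in old fasted and refed cells, but at 63.6 in old fed (log2 -2.93, SE 0.31, adjusted p = 0.00672). Lama3, a laminin chain of the basement membrane, was at 12.3 and 15.3 CPM in young, 2.63 and 2.12 in old and 14.3 in old fed cells (log2 -2.53, adjusted p = 0.0145). The gene named 2010109I03Rik, Ly6m in RefSeq, was at 33.1 and 88.4 CPM in young, 4.68 and 8.37 in old and 61.4 in old fed cells (log2 -3.16, adjusted p = 0.0382). For these 3 genes old fed fell within or above the young range. In all, 11 of the 47 lower genes had old fed cells at or above the lower young library. Since no library was taken as young fed Paneth, age and diet cannot be told apart for that library.

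Nos2, the inducible nitric oxide synthase, moved in opposite directions by gate. In Paneth cells it was at 14.3 and 18.5 CPM in young fasted and refed, 4.68 and 5.98 in old fasted and refed and 13.4 in old fed (log2 -1.62, SE 0.25, adjusted p = 0.0223). In stem cells it was higher in old mice (1.64, adjusted p = 0.00381), and in progenitors it was at 0.77 (adjusted p = 0.148). The difference between Paneth cells and the other gates was -2.83 (adjusted p = 0.00608). That test called 8 genes (0.052%), all with the lower age difference in Paneth cells. Beside Nos2, Mep1a, Plcg2 and Skap2 they were Gm16233 (-2.84), 4930539E08Rik, Bnip5 in RefSeq (-1.57), the actin regulator Eps8l3 (-0.71) and ENSMUSG00000100801 (-1.10). The number moved to 63 by DESeq2. The 8 were not called without young refed or without old refed. Only part of them stayed called without young fasted or without old fasted. Each of these fits rests on a single pair of libraries in the Paneth gate.

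Other called genes were lower in old cells. The sushi-domain protein Susd2 was at 20.3 and 36.7 CPM in young fasted and refed, 5.85 and 6.91 in old fasted and refed and 15.2 in old fed cells (log2 -2.12, SE 0.33, adjusted p = 0.0212). Fam49a, Cyria in RefSeq, was at 24.98 and 9.91 CPM in young, 9.51 and 4.12 in old and 7.68 in old fed cells (log2 -1.34, SE 0.22, adjusted p = 0.0253). For both, all 3 old libraries lay below both young ones, if narrowly for Fam49a. Heph, the ferroxidase hephaestin that passes iron out of enterocytes, was at 128.8 and 76.5 CPM in young fasted and refed and 72.2 and 33.6 in old cells (log2 -1.001, adjusted p = 0.0296). Isx, the intestine-specific homeobox factor that limits vitamin A uptake, was at 37.2 and 30.9 CPM in young and 22.5 and 19.1 in old cells (log2 -0.71, adjusted p = 0.0296). The sulfite oxidase Suox was at 62.8 and 51.6 CPM in young and 32.5 and 27.6 in old cells (log2 -0.93, adjusted p = 0.0388), and the ephrin receptor Epha2 at 19.1 and 19.5 against 8.92 and 8.50 (log2 -1.15, adjusted p = 0.0487). For these 4 genes each old library was below the young one of its diet. Otc, the urea cycle enzyme ornithine transcarbamylase, was at -0.63 (adjusted p = 0.0478), the semaphorin Sema7a at -0.89 (adjusted p = 0.0466) and Pik3r5, a regulator of a phosphoinositide kinase, at -0.89 (adjusted p = 0.0487). The mitochondrial 12S RNA mt-Rnr1 was at -0.48 (adjusted p = 0.0466), the smallest called difference. Nrn1, neuritin, was at -1.53 (adjusted p = 0.0253) and was called lower in old stem cells (-1.09, adjusted p = 0.00432) and progenitors (-1.10, adjusted p = 0.00979) as well.

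**Figure D4:**
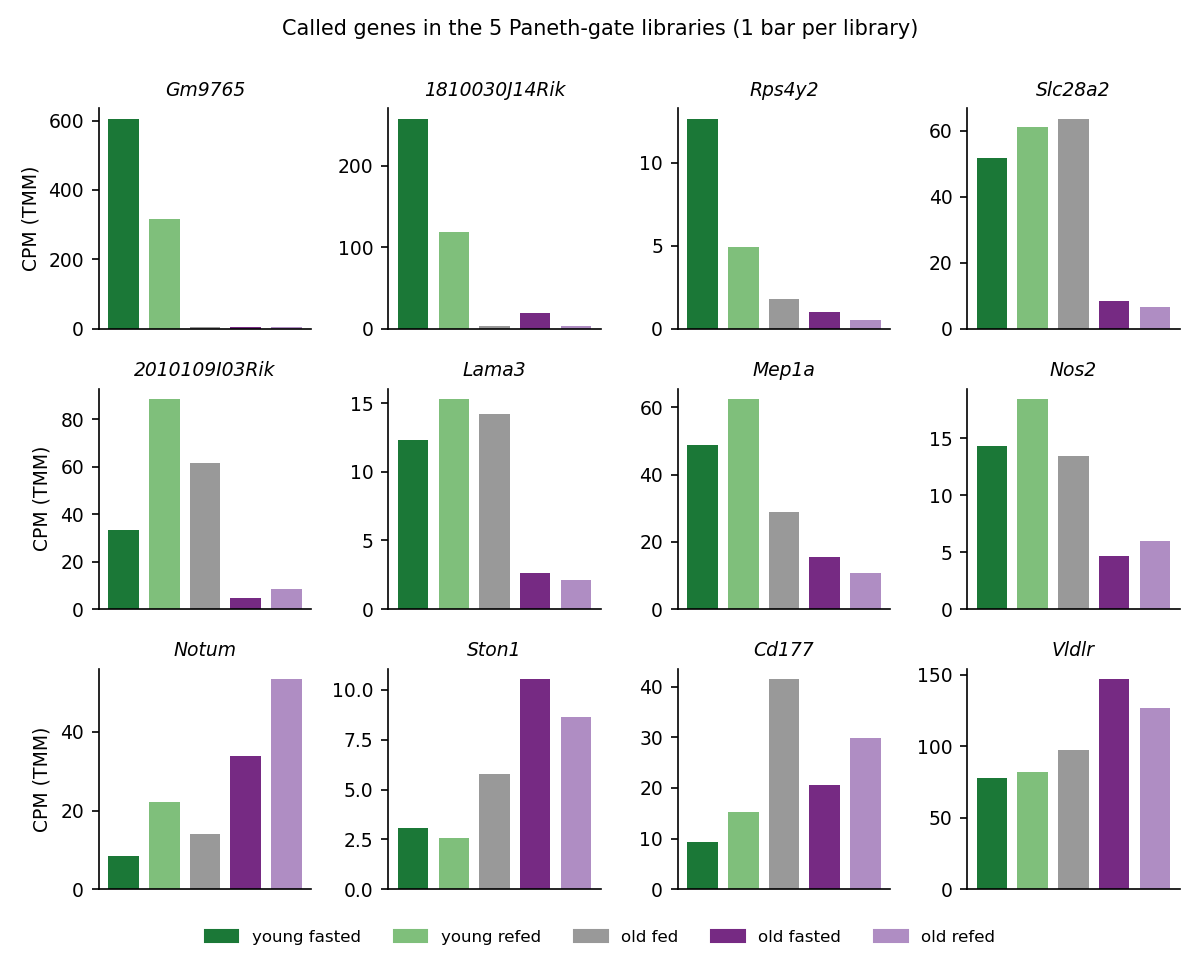
Level of 12 called genes in CPM, with 1 bar for each of the 5 Paneth-gate libraries. The first 8 are lower in the purple old fasted and old refed bars; Slc28a2, 2010109I03Rik and Lama3 are high in old fed (grey); Notum, Ston1, Cd177 and Vldlr are higher in the purple bars.

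Transcripts of 3 loci had the largest called differences. Gm9765 (ENSMUSG00000038218) was at 605.3 and 315.5 CPM in young fasted and refed Paneth cells and at 4.09, 4.65 and 4.25 in old fasted, refed and fed cells (log2 -6.65, SE 0.41, adjusted p = 0.0048). In the older annotation that names it, it lies beside Itln1, the lectin intelectin-1 of Paneth granules (chromosome 1, 171518123 to 171535325), on the other strand. Itln1 itself was at 50510 and 52880 CPM in young and 43750 and 59060 in old cells (log2 -0.02, adjusted p = 0.995). As no stranded kit is stated, reads of overlapping transcripts cannot be told apart here. Gm9765 was 0.597% to 1.2% of unscaled Itln1 in the 2 young Paneth libraries and 0.00787% to 0.00936% in the 3 old ones. In young stem cells and progenitors that share was 0.329% to 1.77% over 6 libraries and in old ones at most 0.155% over 6. The ages did not overlap in any gate, but stem cell levels were near the floor. There Gm9765 was at 0.554 to 2.24 unscaled CPM in young and 0 to 0.164 in old libraries. By edgeR its age difference did not pass in stem cells (adjusted p = 0.526) and passed in progenitors (adjusted p = 0.0161). Its highest young progenitor level, 46.6 unscaled CPM, was in the young fasted library whose source field differs.

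The gene named 1810030J14Rik (ENSMUSG00000026531, chromosome 1, 174330518 to 174332877) is Mptx1 in RefSeq, a mucosal pentraxin. It was at 258.0 and 119.0 CPM in young fasted and refed and at 19.9, 2.79 and 3.84 in old fasted, refed and fed cells (log2 -4.26, SE 0.33, adjusted p = 0.00508). Unscaled, it was at 1.78 to 78.7 CPM in the young stem and progenitor libraries and 0.301 to 8.58 in the old ones, without overlap within a gate. By edgeR this difference did not pass in stem cells (adjusted p = 0.126) and passed in progenitors (adjusted p = 0.00712). Rps4y2 (ENSMUSG00000063171, chromosome 6, 148354656 to 148355596), which RefSeq lists as Rps4l, a transcribed pseudogene of a ribosomal protein, was at 12.7 and 4.96 CPM in young and 1.02, 0.53 and 1.78 in old fasted, refed and fed Paneth cells (log2 -3.47, adjusted p = 0.00176). It was also called lower in old stem cells (-3.29, adjusted p = 3.3e-06) and old progenitors (-3.47, adjusted p = 1.52e-06). Young refed Paneth cells, whose title number is in the same run as the old libraries, were above all old Paneth libraries for these 3 genes. The part of the run in these differences was not tested. Reads of Rps4y2 may be shared with its parent gene, so its level is uncertain.

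Of the 6 genes that rose, Notum is the one with a known role in the niche. Notum (ENSMUSG00000042988, chromosome 11, 120653788 to 120661193) is a secreted esterase that strips the lipid from Wnt ligands and so inactivates them. It was at 8.36 CPM in young fasted and 22.1 in young refed cells, at 33.9 in old fasted and 53.4 in old refed, and at 13.99 in old fed cells. The old fasted and refed libraries lay above both young ones, and old fed lay between the young ones. The log2 difference was 1.62 (SE 0.27, adjusted p = 0.028), with 2.002 in the fasted and 1.27 in the refed pair. In stem cells and progenitors Notum stayed under 1 CPM (at most 0.188 and 0.938), and the test of Paneth against those gates gave 1.56 (adjusted p = 0.399). The call was lost without any 1 of the 4 libraries (adjusted p = 0.192 to 0.443) and without scaling factors (adjusted p = 0.052).

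Cd177, a surface glycoprotein best known from neutrophils, was at 9.27 and 15.3 CPM in young fasted and refed, 20.5 and 29.8 in old fasted and refed and 41.4 in old fed cells (log2 1.04, SE 0.17, adjusted p = 0.0253). It also rose with age in stem cells (1.44, adjusted p = 0.000374) and progenitors (1.31, adjusted p = 0.00139). Vldlr, the very-low-density lipoprotein receptor, was at 77.5 and 82.0 CPM in young and 146.8 and 127.0 in old cells (log2 0.78, adjusted p = 0.0323). Ctsh, the lysosomal protease cathepsin H, was at 39.2 and 36.6 CPM in young and 62.2 and 53.4 in old cells (log2 0.61, adjusted p = 0.0296). Ston1, an adaptor of endocytosis, was at 3.05 and 2.59 CPM in young and 10.5 and 8.63 in old cells (log2 1.76, adjusted p = 0.0358). For each of these 4 genes the old libraries were above both young ones, old fed included. The sixth gene, ENSMUSG00000103711, has no symbol in the table used. Just short of the threshold were Ache, the acetylcholine esterase, at 1.25 (adjusted p = 0.0535), and the paraoxonase Pon3 at 0.65 (adjusted p = 0.0536). Without either refed library, or without either fasted one, 0 of the 5 named genes that rose remained called (adjusted p = 0.192 to 0.48).

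The other niche signals did not pass. Wnt3, the main Wnt ligand of Paneth cells, was at 135.3 and 228.6 CPM in young fasted and refed and 181.7 and 269.9 in old cells (log2 0.33, SE 0.25, adjusted p = 0.691). Egf was at 33.3 and 36.5 CPM in young and 35.8 and 40.2 in old cells (0.12, adjusted p = 0.845). Dll4 was at 54.7 and 52.5 CPM in young and 68.3 and 73.6 in old cells (0.40, adjusted p = 0.284), and Dll1 was at 0.03 (adjusted p = 0.967). Bst1, the ectoenzyme that makes cyclic ADP-ribose for stem cells, was at 29.0 and 26.0 CPM in young, 12.9 and 7.97 in old fasted and refed and 18.8 in old fed cells. All 3 old libraries were below the young ones, yet the spread was large (log2 -1.43, SE 0.45, adjusted p = 0.283). Over 16 tested niche genes the median was 0.11, and Notum was the 1 call.

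The antimicrobial products had a median near 0. Of 26 tested genes 0 were called by edgeR or by DESeq2 and 1 had an unadjusted p under 0.05 by edgeR. On the 5 Paneth libraries alone or the 4 matched ones edgeR called 2 lower, and without the young fasted progenitor 1. In the fit of 17 libraries the median was -0.04, with 6 members lower and 6 higher in both pairs. Lyz1, the lysozyme of Paneth granules, was at 115300 and 135100 CPM in young fasted and refed, 135800 and 214700 in old fasted and refed and 166600 in old fed cells (log2 0.45, SE 0.69, adjusted p = 0.867). The alpha-defensin Defa24 was at 162200 and 174600 CPM in young and 149000 and 204700 in old cells (0.05, SE 0.62, adjusted p = 0.985). Mmp7, the protease that activates defensins, was at 0.04 (SE 0.70) and the ribonuclease Ang4 at -0.07 (SE 0.43). The standard error of Avil was 0.14, so only larger changes were detectable in these granule products. Defensins are near-identical in sequence, and reads may be split between them. On the Paneth identity list 0 of 21 were called (median 0.09), with the sort markers Cd24a at -0.14 and Kit at 0.19 (adjusted p = 0.823 and 0.739). Of the 21, only 3 were below 0, with 2 lower and 9 higher in both pairs. The sum of 22 identity genes, in which abundant genes weigh most, was nevertheless lower in the old library of each diet. It was at 9112 unscaled CPM in young fasted and 6886 in old fasted cells, and at 10250 and 8237 in the refed pair. Old fed cells were at 7626.

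Interferon-stimulated genes, the antiviral and antigen-presentation genes that interferons switch on, were below 0 for all 29 tested members, and 23 were lower in both pairs. The median was -0.61, nearly equal in the fasted pair (-0.65) and the refed pair (-0.65). Both old libraries were below both young ones for 18 of 29, against 13.4% of all genes. Old fed was below both young for 25, against 28.3% of all genes. Oasl2 (ENSMUSG00000029561, chromosome 5, 114896926 to 114912245), a protein like the oligoadenylate synthetases, was the 1 member called (6 with no expression filter, on the 5 Paneth libraries alone or on the 4 matched ones): 54.2 and 33.9 CPM in young fasted and refed, 26.9 and 15.01 in old fasted and refed and 16.7 in old fed cells (log2 -1.09, SE 0.17, adjusted p = 0.0223). Isg15, a ubiquitin-like modifier, was at 9.72 and 6.31 CPM in young and 3.51 and 1.73 in old cells (log2 -1.65, adjusted p = 0.157). Ifit1, which binds viral RNA, was at 11.2 and 7.21 CPM in young and 2.63 and 2.26 in old cells (log2 -1.88, adjusted p = 0.206), and the antiviral Rsad2 was at 5.65 and 2.59 against 1.61 and 0.27 (log2 -2.25, adjusted p = 0.183). Stem cells and progenitors had medians of 0.10 and 0.17. Among 17 class I antigen-presentation genes 15 were below 0 and 0 were called, with B2m at -0.48 (adjusted p = 0.0765).

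Promoters of this list are shown because all its tested members were below 0. Of 20 interferon genes with a promoter in RefSeq's GRCm38.p6 annotation, 12 hold GAAANNGAA, the core of the interferon-stimulated response element, on either strand within 250 bases before the start, against 8.18% of 27025 genes with a promoter there. Oasl2 does not hold it there. The 250 bases before the start of 3 members with large differences are given 5' to 3' along the gene, with each match, or run of overlapping matches, in capitals. Isg15 lies on the minus strand at chr4:156200819-156201068, Ifit1 on the plus strand at chr19:34640639-34640888 and Rsad2 on the minus strand at chr12:26456453-26456702. A match is a run of letters and not a shown binding site.
Isg15: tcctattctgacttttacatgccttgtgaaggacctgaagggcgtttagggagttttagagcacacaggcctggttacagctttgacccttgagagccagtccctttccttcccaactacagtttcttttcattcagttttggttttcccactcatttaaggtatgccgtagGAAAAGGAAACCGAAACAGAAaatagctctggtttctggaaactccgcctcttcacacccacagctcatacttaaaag
Ifit1: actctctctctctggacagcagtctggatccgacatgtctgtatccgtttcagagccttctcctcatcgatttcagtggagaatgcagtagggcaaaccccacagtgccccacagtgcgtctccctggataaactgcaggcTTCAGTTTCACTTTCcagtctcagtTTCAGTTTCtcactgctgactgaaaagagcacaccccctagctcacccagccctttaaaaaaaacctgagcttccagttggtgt
Rsad2: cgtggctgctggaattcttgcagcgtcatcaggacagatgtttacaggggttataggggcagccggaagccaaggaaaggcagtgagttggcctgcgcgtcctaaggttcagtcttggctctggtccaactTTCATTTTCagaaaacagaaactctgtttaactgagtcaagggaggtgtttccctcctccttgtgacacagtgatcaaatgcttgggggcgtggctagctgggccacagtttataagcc

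The same search with ATGCAAAT, the octamer bound by POU factors such as Pou2f3, found it for 1 of 14 tuft genes (Hpgds) and 1.81% of all genes. CAAAGT, part of the site of the HNF4 factors of enterocytes, was found for 8 of 19 enterocyte genes and 14.1% of all genes, and AACCACA, the RUNX site, for 2 of 14 tuft genes and 5.08%. CTTTGAT, the TCF/LEF site at Wnt targets, was found for 2 of 14 Wnt target genes and 3.72%. A gene counts once, if any of its promoters holds the motif. These are 5 motifs in all, and no overlap between motifs was checked.

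**Figure D5:**
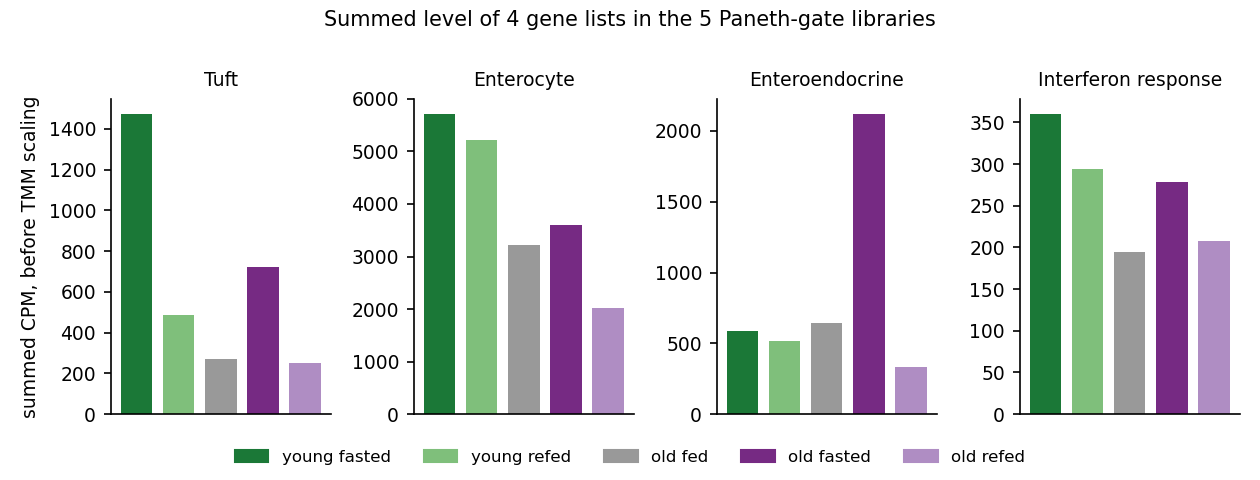
Summed level of 4 gene lists in unscaled CPM, with 1 bar for each of the 5 Paneth-gate libraries. Tuft, enterocyte and interferon sums are lower in the old library of each diet (tuft 1475 against 721 and 486.6 against 251.1), and the enteroendocrine sum of 2122 in old fasted stands above the other 4.

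Enteroendocrine genes differed in sign between the diets. The list of 24 tested genes had a median of 1.38 in the fasted and -0.56 in the refed pair, and 0 were called for age. One library carried this: the summed unscaled level was 2122 CPM in old fasted cells and 330 to 643.4 in the other 4. Chga, the granule protein chromogranin A, was at 785.8 CPM in old fasted against 224.2 in young fasted, and at 139.3 in old refed against 183.3 in young refed cells (log2 0.73, SE 0.81, adjusted p = 0.807). Without young fasted or old fasted the list median turned to -0.62. No gene passed the test of whether the age difference depends on diet (0 of 15386, 0%). At an unadjusted p under 0.05 were 550 by edgeR, and DESeq2 called 0, with 140. In that fit each Paneth library was its own mean, so the spread came from the stem and progenitor gates alone. It therefore cannot show that the age difference is the same in both diets.

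Genes under the PPAR receptors, which switch on fat use in fasting, leaned lower in old cells. Of 19 tested, 17 were below 0, 11 were lower in both pairs, and the median was -0.70. Me1 (ENSMUSG00000032418, chromosome 9, 86581363 to 86695914), the malic enzyme that supplies NADPH, was the 1 call: 38.5 and 16.33 CPM in young fasted and refed, 16.1 and 8.10 in old fasted and refed and 4.80 in old fed cells (log2 -1.16, SE 0.12, adjusted p = 0.0048). It was also lower in old stem cells (-0.58, adjusted p = 0.0414) and progenitors (-0.61, adjusted p = 0.00981). Without young fasted or old fasted it no longer passed (adjusted p = 0.116 and 0.108), and the list median was -0.32 in both fits. Pdk4, the kinase that spares glucose in fasting, was at 94.5 and 3.72 CPM in young and 56.9 and 2.26 in old cells, so that its fasted level was high at both ages (age log2 -0.73, adjusted p = 0.106).

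Genes of stem cells, division and senescence were near 0. The stem list had 0 of 15 called (median -0.04, Lgr5 at -0.04 with SE 0.44, Olfm4 at -0.17 with SE 0.30). Mki67, a mark of dividing cells, was at 138.8 and 65.7 CPM in young fasted and refed and 135.1 and 69.6 in old cells (0.02, SE 0.11, adjusted p = 0.968), and 0 of 25 mitosis genes were called (median -0.14). On the senescence list 0 of 11 were called (median -0.04), with the cell cycle inhibitor Cdkn1a at -0.20 (SE 0.46, adjusted p = 0.918). Goblet genes had 0 of 18 called and a median of 0.02, and the class II chaperone Cd74 was at -0.05 (adjusted p = 0.937), against 0.76 in progenitors (adjusted p = 0.0243).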

How the data were processed

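The deposited table holds 1 column of counts for each of 18 libraries and 50686 Ensembl genes. The values were read as RSEM expected counts, since the submitters' processing notes name RSEM beside BWA 0.7.12-r1039, bedtools 2.25.0.64 and STAR 2.5.3a, and 22.96% of the deposited values are not whole. Per the series description the libraries were sequenced more than once and analysed against mm10; whether runs were merged is not given in the sources used here. Counts were rounded. The second library labelled young fasted stem, whose title repeats that of the other, was left out of the fit, which leaves 17.

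Genes were tested with edgeR 4.0.16 (R 4.3.3): its quasi-likelihood test, dispersions fitted robustly, TMM scaling, filterByExpr by gate (minimum count 10, minimum total 15), age and diet as added terms within each of 3 gates, 12 coefficients over 17 libraries (5 residual degrees of freedom, biological variation coefficient 0.125). With 1 library per combination, the gates share 1 estimate of the spread, and a lone library is assumed to vary like the others. That spread is what the added age and diet terms leave over, most of it from the stem and progenitor gates. Old fed took its own term. Within a pair, log2 CPM (prior count 2) were subtracted. DESeq2 1.42.0, other scalings and filters, other designs and leaving out each library were the alternatives. The age fit was tested on simulated data. It found 16.4% of simulated 1.5-fold changes, 56.7% of 2-fold and 84.8% of 4-fold changes, so smaller changes can be missed. Of its calls there, 7.89% were false, a larger share than the adjusted p threshold aims at. The genes called for age may therefore hold more false calls than that threshold states.

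Symbols (for 32722 genes) come from an annotation of an older build, coordinates and promoters from RefSeq on GRCm38.p6, the build of mm10; identifiers without a symbol hold 8.38% of the counts of the 5 Paneth libraries. The comparison and 36 gene lists were chosen with earlier results of these data known, so no list is independent support. By rule the text names called genes among the 12 largest in each direction (same sign in both pairs, mean log2 CPM of at least 3), up to 4 called members of a list and fixed genes of the niche, granules, stem cells and stress. Chosen after their values were seen were Sh2d6, Plcg2, Spib, Skap2, Rps4y2, Lama3, Ston1, 4930539E08Rik, Eps8l3, Dclk1, Pou2f3, Isg15, Ifit1, Rsad2, Mgam, Slc5a1, Chga, Slc10a2, Muc3, B2m, Heph, Isx, Suox, Epha2, Nrn1, Pik3r5, Otc, Sema7a and mt-Rnr1. One called gene is not reported here.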

Additional observations from a re-analysis of the deposited data

Results flagged for a closer look

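The age difference in Paneth cells was lower than the mean of those in stem cells and progenitors for 8 genes by edgeR's test of the difference itself: Plcg2 (-0.99), Mep1a (-1.98), ENSMUSG00000100801 (-1.10), Gm16233 (-2.84), 4930539E08Rik (-1.57), Nos2 (-2.83), Skap2 (-0.92) and Eps8l3 (-0.71). Gm16233 was at 24.5 and 47.9 CPM in young fasted and refed Paneth cells, 5.12 and 7.17 in old fasted and refed and 29.6 in old fed. Eps8l3 was at 209.7 and 136.8 CPM in young and 148.3 and 93.8 in old fasted and refed cells. The median of the enteroendocrine list was 1.38 in the fasted and -0.56 in the refed pair, and for the list the difference between diets was not tested. No group holds 4 or more libraries, so no library was tested as standing apart from its group.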

How the results depend on the processing

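The count of 53 genes called for age moved to 313 with no expression filter, 125 by DESeq2, 373 with the 5 Paneth libraries alone (51 shared with the 53), 356 with the 4 matched ones alone, 13 with fed and refed as 1 level and 1 with no diet term. Leaving out 1 Paneth library gave 6 to 53. The count of 8 against the other gates moved to 16 without scaling factors, 229 with no filter and 63 by DESeq2. It moved to 0 with fed and refed as 1 level and to 0 with no diet term. Without young refed or without old refed the 8 were not called, and without either fasted library only part of them were. The count for age by diet moved to 3 with no filter. Without the young fasted progenitor whose source field differs 57 were called for age, and that library's effect on the tuft list in progenitors was looked at after the data were seen. No cause was tested.

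No named call changed direction. Of 39 named calls, upper-quartile factors kept 34, no scaling factors 34, DESeq2 38, no filter 38, the Paneth libraries alone 37 of 38 tested, fed and refed as 1 level 9 and no diet term 1. Genes that did not pass did: without scaling factors Mmp7 (-0.001), Dll1 (-0.011) and Mki67 (-0.017); with upper-quartile factors Itln1 (0.00); with fed and refed as 1 level Mmp7 (-0.141), Lgr5 (0.052), Olfm4 (0.564) and Cd74 (0.162); with no diet term Mmp7 (-0.099), Lgr5 (0.042), Olfm4 (0.491) and Cd74 (0.235). Leaving out 1 Paneth library, Mmp7 ranged from -0.067 to 0.143, Defa24 from -0.124 to 0.23, Itln1 from -0.209 to 0.16, Dll1 from -0.257 to 0.305, Olfm4 from -0.375 to 0.035, Cd74 from -0.285 to 0.179, Mki67 from -0.04 to 0.084, Cd24a from -0.276 to 0.001 and Chga from -0.396 to 1.808. The antimicrobial median ranged from -0.204 to 0.077 and the enteroendocrine median from -0.617 to 1.394. No paired analysis was possible because the labels number no replicates; the diet term holds the matched pairs. Depth was 10631071 to 15654490 counts, and the filter, which works by gate over all 17 libraries, kept some genes with under 10 counts in each Paneth library.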
